A study of Mus musculus with 11 samples.

Results

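The non-canonical NFκB pathway was followed here through 10 genes, out of 35814 gene symbols counted in renal CD4+ T cells. The genes were listed by name, with earlier results of these data known: Chuk (IKK1), Map3k14 (NIK), their substrate Nfkb2 and its partner Relb, the regulators of NIK Traf2, Traf3, Birc2 and Birc3, and the receptors Ltbr and Cd40. All 10 were found in the table. RNA-seq libraries came from CD4+ T cells that were enriched and sorted from kidneys of male mice aged 8–12 weeks on the C57BL/6 background, 2 days after ischemia–reperfusion injury (IRI) with 45 min of clamping of the renal pedicles. There were 3 libraries labelled CD4cre (genotype WT, Cre control), 5 labelled CD4IKK1 (IKK1 knockout, CD4IKK1Δ) and 3 labelled CD4NIK (NIK knockout, CD4NIKΔ), and no library from sham-operated mice was analysed. In both deleted lines, Cre under the CD4 promoter was combined with the floxed kinase gene, so deletion is expected wherever that promoter has been active, CD8+ T cells included. The labels number the libraries of a genotype as biological replicates and do not say whether animals were pooled.

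In the non-canonical pathway, receptors of the TNF receptor superfamily stabilise the kinase NIK, which activates IKK1. IKK1 then phosphorylates p100, the product of Nfkb2, and p100 is processed to p52, which enters the nucleus with RelB. In resting cells NIK is kept low because TRAF3 and TRAF2 bring it to the ubiquitin ligases cIAP1 (Birc2) and cIAP2 (Birc3). Much of this control acts on proteins and is not seen in transcript counts. Nfkb2, Relb, Traf2 and Birc3 are also known targets of NFκB itself.

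The sequence that feeds back on this pathway is the κB site, the DNA element to which NFκB dimers bind. RefSeq promoters (GRCm38.p6, 250 bases before to 50 after each gene start) were at hand for 8 of the 10 genes, with 11 starts. Relb and Cd40 were not in the table used. A match to the κB consensus was present in 4.51% of 32851 promoters and, among the members, in those of Nfkb2 (at each of its 3 starts) and Traf3. The windows of the last 2 Nfkb2 starts overlap, and the only match of the last start lies in both windows. Both strands were searched over the whole window. The 250 bases before the start are shown for Nfkb2, at 2 of its starts, and for Traf3, since these are the members with a consensus match. Capitals mark the consensus matches, the strand is plus, and windows are chr19:46304487-46304736, chr19:46305445-46305694 and chr12:111166120-111166369 in that order.
Nfkb2, upstream start: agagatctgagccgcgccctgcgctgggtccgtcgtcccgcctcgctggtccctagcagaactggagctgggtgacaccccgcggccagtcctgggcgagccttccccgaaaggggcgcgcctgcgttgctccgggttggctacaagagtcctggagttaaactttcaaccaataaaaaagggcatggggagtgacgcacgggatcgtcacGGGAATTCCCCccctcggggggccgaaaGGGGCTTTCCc
Nfkb2, next start: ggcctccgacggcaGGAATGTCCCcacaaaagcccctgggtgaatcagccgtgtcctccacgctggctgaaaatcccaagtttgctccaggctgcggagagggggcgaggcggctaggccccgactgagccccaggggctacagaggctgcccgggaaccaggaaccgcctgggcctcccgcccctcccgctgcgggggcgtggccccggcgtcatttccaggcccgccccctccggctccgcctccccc
Traf3: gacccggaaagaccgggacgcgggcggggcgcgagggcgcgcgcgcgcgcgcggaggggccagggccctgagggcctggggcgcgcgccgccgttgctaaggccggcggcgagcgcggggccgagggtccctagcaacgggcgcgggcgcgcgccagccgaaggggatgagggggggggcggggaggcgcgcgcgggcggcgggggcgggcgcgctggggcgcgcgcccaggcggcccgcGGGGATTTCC
In Nfkb2 the upstream start carries 2 overlapping matches, GGGAATTCCC and GGAATTCCCC, and a separate match, GGGGCTTTCC, close to the start. The Traf3 match, GGGGATTTCC, ends at the last base before the start. A match is a description of the letters and does not show that NFκB binds there in these cells.

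The libraries differed strongly in how much T cell RNA they held, and this bears on each comparison below. Total estimated counts were 15751632–25737046 per library, so that 3 counts, the floor used for a gene not seen, correspond to 0.115–0.212 counts per 1000000 TMM-scaled counts (CPM). The summed CPM of 16 Pan T markers (such as Cd3e, Cd4 and Trac) was 1661–3139 in CD4cre libraries, 17.5–1439 in libraries labelled CD4IKK1Δ and 8539–12660 in libraries labelled CD4NIKΔ. CD4IKK1Δ replicates 1 and 2 held only 41 and 868 counts of the T cell receptor constant genes, against 5277–11413 in the other 3 of that genotype and 12558–35820 in CD4cre, and these 2 libraries therefore go against their label as CD4+ T cells. All 8 neuronal markers were detected in every library, with summed CPM of 2441–3003, 3084–3631 and 824–1651 in CD4cre, CD4IKK1Δ and CD4NIKΔ, and the 8 myeloid and dendritic markers summed to 190–596, 37.2–65.8 and 293–515. In bulk RNA, fewer T cells and less RNA per T cell cannot be told apart. None of the 55 pairs of libraries held identical values.

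**Figure D1:**
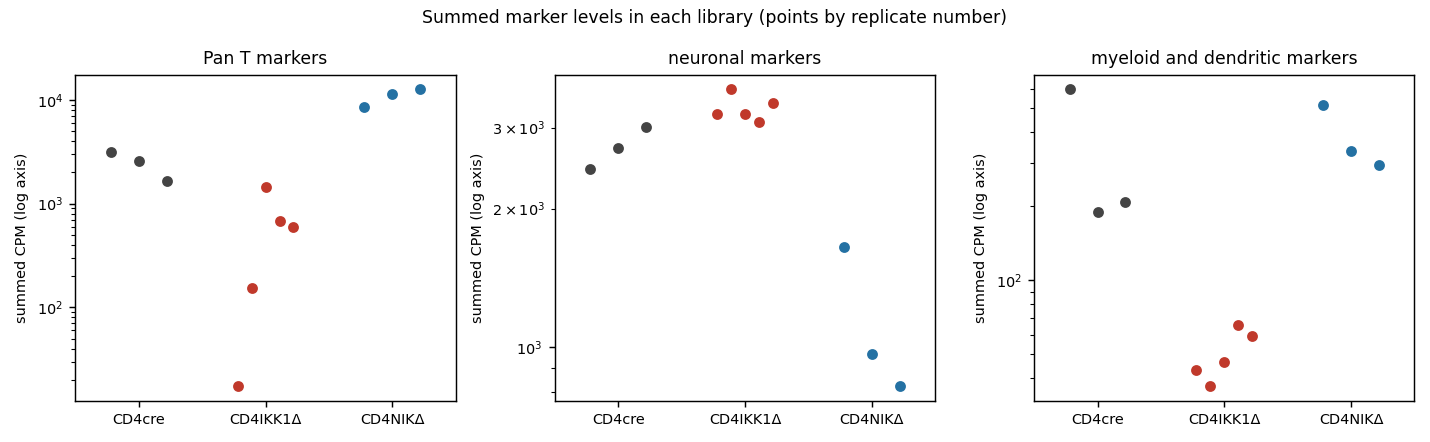
Summed CPM (log axis) of the Pan T, neuronal, and myeloid and dendritic marker lists, with 1 point per library placed from left to right by replicate number within CD4cre, CD4IKK1Δ and CD4NIKΔ. The Pan T sum is 8539–12660 in every CD4NIKΔ library and falls to 17.5 in CD4IKK1Δ replicate 1, whereas the neuronal sum is lowest in CD4NIKΔ.

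Levels are given first for the kinases, whose genes were the targets of the deletions. Separate groups were common: 14.5% of all genes tested did not overlap between CD4IKK1Δ and CD4cre. The share was 45.3% between CD4NIKΔ and CD4cre and 45.2% between CD4IKK1Δ and CD4NIKΔ. The share of all genes that set a group apart from both others was not computed. Chuk encodes IKK1, the catalytic subunit shared by both NFκB pathways (GRCm39 chromosome 19, 44061769–44095935, minus strand). Chuk was at 16.6, 33.3 and 16.3 CPM in CD4cre replicates 1 to 3, at 16.7, 21.3, 22.3, 15.3 and 26.5 CPM in CD4IKK1Δ replicates 1 to 5, and at 23.1, 39.7 and 37.4 CPM in CD4NIKΔ replicates 1 to 3. Of the CD4IKK1Δ libraries 4 lay inside the range of the controls and replicate 4 just below it, so the targeted transcript did not separate by label. The counts sum over all transcripts of a gene, do not resolve the floxed exons and include RNA of cells other than T cells, and they therefore do not check the deletion.

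Map3k14 encodes NIK, the kinase at which non-canonical signals converge (chromosome 11, 103110577–103158298, minus strand). Map3k14 was at 19.5, 19.6 and 14.8 CPM in CD4cre, at 1.88, 4.92, 6.17, 9.25 and 7.67 CPM in CD4IKK1Δ and at 12.8, 30.8 and 23.8 CPM in CD4NIKΔ. Libraries labelled CD4NIKΔ thus held as much Map3k14 as the controls, with CD4NIKΔ replicate 1 below and the other 2 above the CD4cre range. Every CD4IKK1Δ library lay below every other library.

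The transcription factor genes were Nfkb2 and Relb. Nfkb2, the precursor p100 and its product p52 (chromosome 19, 46292759–46303812, plus strand), was at 79.7, 89.3 and 84.1 CPM in CD4cre, at 2.07, 14.4, 49.1, 29.1 and 18.0 CPM in CD4IKK1Δ and at 89.2, 229 and 159 CPM in CD4NIKΔ. The controls were close together and above all CD4IKK1Δ libraries, and within CD4IKK1Δ the lowest and the highest were replicates 1 and 3, which also had the lowest and the highest Pan T sums. Relb, the partner of p52 (chromosome 7, 19339017–19363425, minus strand), was at 21.3, 12.1 and 36.0 CPM in CD4cre, at 7.76, 13.8, 47.0, 19.6 and 7.53 CPM in CD4IKK1Δ and at 88.7, 127 and 123 CPM in CD4NIKΔ. CD4cre and CD4IKK1Δ overlapped widely for Relb, and every CD4NIKΔ library was above all others.

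Of the genes whose products degrade NIK, Traf2 and Birc2 were higher in all CD4NIKΔ libraries than in any other library. Traf2, the adaptor that recruits the ligases (chromosome 2, 25406097–25436987, minus strand), was at 32.9, 30.1 and 20.5 CPM in CD4cre, at 3.69, 5.92, 26.7, 9.75 and 5.23 CPM in CD4IKK1Δ and at 101.5, 87.1 and 106 CPM in CD4NIKΔ. CD4IKK1Δ replicate 3 alone reached the range of the controls. Birc2, which encodes cIAP1 (chromosome 9, 7818227–7837120, minus strand), was at 70.6, 59.3 and 39.2 CPM in CD4cre, at 44.5, 35.2, 48.6, 45.8 and 47.2 CPM in CD4IKK1Δ and at 113, 97.9 and 92.5 CPM in CD4NIKΔ. Birc2 varied little among the CD4IKK1Δ libraries, at 44.2 ± 5.30 CPM (SD, n = 5), where Nfkb2 was at 22.5 ± 17.7 and Traf2 at 10.2 ± 9.44.

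The other genes of this group were Birc3 and Traf3. Birc3, which encodes cIAP2 and lies beside Birc2 (chromosome 9, 7845790–7873229, minus strand), was at 15.2, 7.16 and 5.07 CPM in CD4cre, at 1.88, 2.36, 2.21, 2.83 and 3.38 CPM in CD4IKK1Δ and at 5.74, 19.0 and 15.96 CPM in CD4NIKΔ. All CD4IKK1Δ libraries lay below every other library. Birc2 and Birc3 are paralogs, and pseudoalignment could share some of their reads between them. Traf3, the adaptor that binds NIK directly (chromosome 12, 111132776–111233589, plus strand), was at 18.5, 7.64 and 5.52 CPM in CD4cre, at 17.7, 22.3, 6.28, 5.02 and 1.13 CPM in CD4IKK1Δ and at 18.4, 27.3 and 31.6 CPM in CD4NIKΔ. CD4IKK1Δ replicates 1 and 2, the libraries with the fewest T cell receptor counts, held the most Traf3 of their genotype.

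The receptor genes were barely present. Ltbr, the lymphotoxin β receptor of stromal and myeloid cells (chromosome 6, 125283534–125290886, minus strand), was at 4.27, 2.19 and 1.91 CPM in CD4cre, at 1.03, 0.157, 1.36, 1.89 and 1.26 CPM in CD4IKK1Δ and at 3.09, 1.08 and 0.989 CPM in CD4NIKΔ. Cd40, the receptor of B cells and dendritic cells for CD40 ligand (chromosome 2, 164897544–164914868, plus strand), had 1, 44 and 0 counts in CD4cre, 0, 0, 28, 0 and 0 counts in CD4IKK1Δ and 30, 45 and 2 counts in CD4NIKΔ. Cd40 was at or under 3 counts in 7 of the 11 libraries and passed the filter on low counts only where CD4NIKΔ was in the comparison. At this depth its absence from the other libraries cannot be told from a low level.

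**Figure D2:**
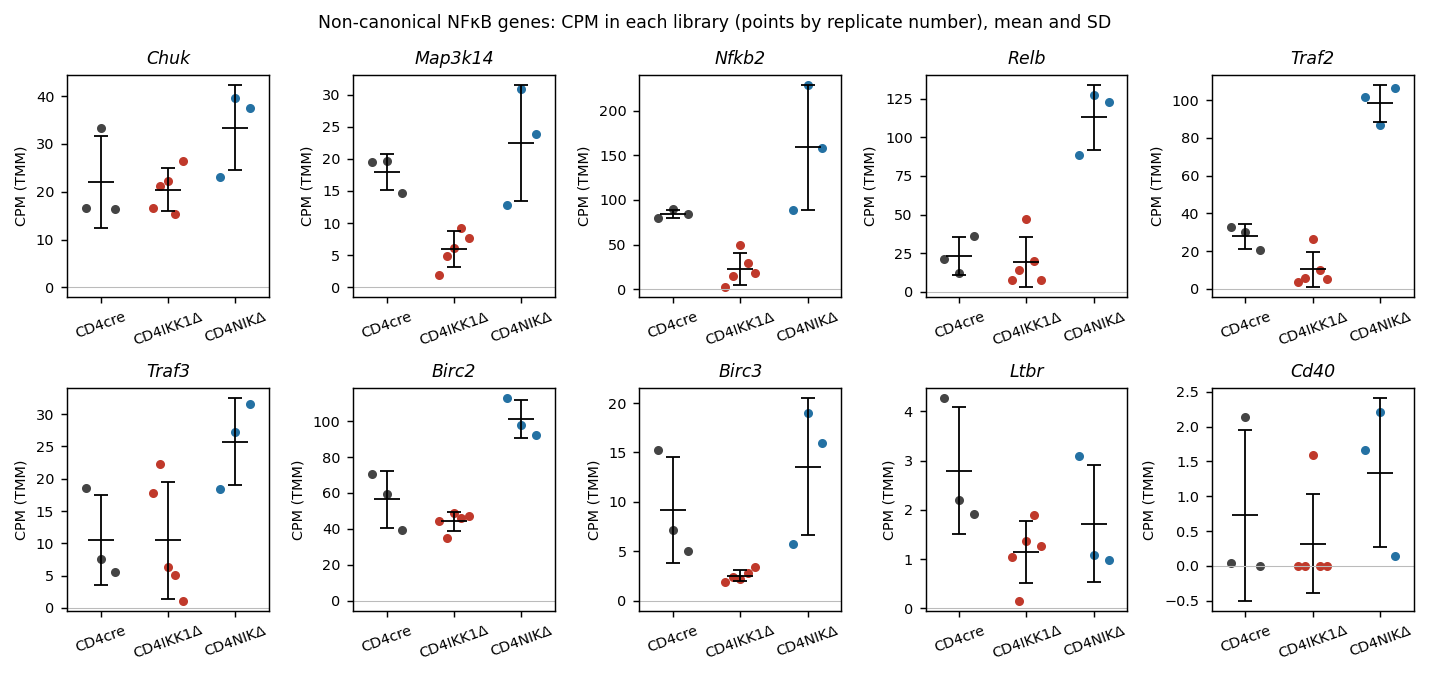
CPM (TMM normalised, linear axes from about 0, a separate scale for each gene) of the 10 genes, with 1 point per library by replicate number, and bars for the mean and SD of 3 CD4cre, 5 CD4IKK1Δ and 3 CD4NIKΔ libraries. CD4NIKΔ libraries lie above all others for Relb, Traf2 and Birc2, and CD4IKK1Δ libraries lie below all others for Map3k14, Nfkb2 and Birc3. Of all genes tested, 45.3% do not overlap between CD4NIKΔ and CD4cre, 45.2% between CD4IKK1Δ and CD4NIKΔ and 14.5% between CD4IKK1Δ and CD4cre.

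Between genes, levels were compared as CPM per kilobase of the canonical transcript. In CD4cre, Birc2 was highest at 16.9 ± 4.77 (SD, n = 3), followed by Nfkb2 at 12.5 ± 0.718, Traf2 at 9.03 ± 2.12, Relb at 6.81 ± 3.55 and Chuk at 6.29 ± 2.76. Map3k14 came next at 4.22 ± 0.650, then Birc3 at 1.58 ± 0.929, Traf3 at 1.47 ± 0.969, Ltbr at 1.32 ± 0.610 and Cd40 at 0.243 ± 0.410. The ranges of neighbours in this order were apart between Nfkb2 and Traf2, Chuk and Map3k14, Map3k14 and Birc3, and Ltbr and Cd40, and overlapped otherwise. In CD4NIKΔ the order began with Relb at 33.3 ± 6.25, Traf2 at 31.9 ± 3.24, Birc2 at 30.3 ± 3.17 and Nfkb2 at 23.6 ± 10.4 (SD, n = 3), with overlapping ranges. In CD4IKK1Δ Birc2 stood alone at 13.3 ± 1.59 (SD, n = 5), ahead of Chuk at 5.82 ± 1.29, and neighbours from Chuk down to Cd40 overlapped.

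The first comparison asked how loss of IKK1 in CD4+ T cells changed the pathway's own transcripts. Nominally, Birc3, Map3k14, Nfkb2 and Traf2 were lower in libraries labelled CD4IKK1Δ, but no member was called in this comparison. A gene was called when its false discovery rate (FDR) by edgeR's quasi-likelihood test, adjusted over all genes tested, was under 0.05. With 9 members tested (Cd40 did not pass the filter), 0 were called, and the background was 0% of 15653 genes called. All 9 had a log2 fold change below 0, with a median of −1.29 against 0.02 for all genes tested, and all 9 were above 0 when the libraries were instead scaled to their Pan T sum, a scaling that moved the median of all genes to 4.87. At an unadjusted p under 0.05, 4 members were lower, against 16.6% of all genes in either direction and 8.91% lower.

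The largest of these differences was in Nfkb2, with a log2 fold change of −1.90 (SE 0.74) and an FDR of 0.263 by edgeR. Birc3 followed at −1.85 (SE 0.50, FDR 0.127) and Map3k14 at −1.58 (SE 0.46, FDR 0.148). DESeq2, run on the same libraries, called these last 2 genes lower, with log2 fold changes of −1.87 (adjusted p 0.00517) for Birc3 and −1.59 (adjusted p 0.0155) for Map3k14, where it called 8.75% of 11585 genes and 5.96% as lower. Traf2 was at −1.44 (SE 0.57, FDR 0.248) and Ltbr at −1.29 (SE 0.83, FDR 0.486). Birc2 at −0.35 (SE 0.21), Relb at −0.27 (SE 0.61), Chuk at −0.11 (SE 0.31) and Traf3 at −0.02 (SE 0.79) did not pass even without adjustment, with Birc2 nearest at an unadjusted p of 0.115 by edgeR.

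Groups did not overlap for 4 members, Map3k14, Nfkb2, Birc3 and Ltbr, all lower in CD4IKK1Δ, where 14.5% of all genes tested did not overlap and 8.44% did so with CD4IKK1Δ lower. Ltbr was separated only by 1.89 against 1.91 CPM, and with RLE factors 3 members did not overlap, where 14.6% of all genes did not. Without CD4IKK1Δ replicates 1 and 2, the libraries with few T cell receptor counts, again 0 of 9 members were called, where 0.245% of all genes were, and 4 did not overlap, where 20.5% of all genes did not, and the median log2 fold change was −1.01. The Pan T markers moved with these genes: all 16 had a log2 fold change below 0 in CD4IKK1Δ, with a median of −2.04, and their part in the result was not tested. A fit with the Pan T score as a covariate gave the members a median of −0.44. That edgeR fit called 0 members and 0% of all genes, and at an unadjusted p under 0.05 it had 0 members and 7.34% of all genes. The Pan T sums of the groups did not overlap, so this fit could hardly tell genotype from the Pan T score, and its missing calls are not read. Other marker sums were also lower in CD4IKK1Δ than in CD4cre without overlap: 6 B cell markers summed to 4.14–25.6 against 67.6–140 CPM, 8 myeloid and dendritic markers to 37.2–65.8 against 190–596, and kidney tubule markers to 4.45–12.4 against 16.6–85.3. Neuronal sums went the other way without overlap, at 3084–3631 against 2441–3003 CPM, with 7 of 8 genes above 0. The part of these lists in the result was not tested.

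The second comparison asked the same of NIK. Relb, Traf2 and Birc2 rose in libraries labelled CD4NIKΔ. Of 10 members tested, 3 were called, all higher, where edgeR called 21.1% of 15209 genes and 12.1% as higher. Relb rose 4.83-fold, with a log2 fold change of 2.27 (SE 0.39) and an FDR of 0.00980 by edgeR. Traf2 rose 3.50-fold, at 1.81 (SE 0.24, FDR 0.00468), and Birc2 rose 1.78-fold, at 0.83 (SE 0.25, FDR 0.0473). These were also the 3 members whose groups did not overlap, where 45.3% of all genes tested did not overlap and 22.9% were higher in CD4NIKΔ. With RLE factors 5 members did not overlap (45.1% of all genes), and without CD4NIKΔ replicate 1 it was 9 (60.1% of all genes).

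The other members did not pass the test. Nfkb2 was at 0.89 (SE 0.31, FDR 0.0691 by edgeR) and Traf3 at 1.27 (SE 0.48, FDR 0.0886), both called by DESeq2, which called 5 members, all higher, and 30.4% of all genes, 16.2% as higher. With a fold change of more than 2 required as well, edgeR called 2 members, Relb and Traf2, where it called 17.4% of all genes and 10.4% as higher. Cd40 was at 0.87 (SE 1.63), Chuk at 0.58 (SE 0.37), Birc3 at 0.55 (SE 0.56), the targeted gene Map3k14 at 0.30 (SE 0.36) and Ltbr at −0.69 (SE 0.74). The call for Birc2 was lost in 5 of 6 fits that left out 1 library, with FDR up to 0.117, and held only without CD4cre replicate 1. In fits that left out 1 library, Nfkb2 was called without CD4NIKΔ replicate 1 (FDR 0.00548) and Traf3 without CD4cre replicate 1 (FDR 0.0240). With all 11 libraries in the fit, the FDR of Traf2 was 0.0612.

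The direction in this comparison depended on what a library was scaled to. Pan T markers were called higher in CD4NIKΔ for 15 of 16 genes, with a median log2 fold change of 2.06, and neuronal markers lower for 6 of 8, with a median of −1.27. B cell markers summed to 194–663 CPM against 67.6–140 in CD4cre, without overlap, with 1 of 3 tested called higher, and their part in the result was not tested. Endothelial and stromal markers summed to 24.0–55.0 against 17.0–22.2 CPM (1 of 3 tested called higher) and glial markers to 148–383 against 459–604 (2 of 4 called lower), both without overlap and with their part not tested. The myeloid and dendritic sums overlapped. Without Cd40, the median of the members was 0.83 against −0.02 for all genes, with 8 of 9 members above 0, and all 9 were below 0 when the libraries were scaled to their Pan T sum. That scaling moved the median of all genes to −2.21, and 6 members were then called lower, namely Birc2, Birc3, Chuk, Ltbr, Map3k14 and Nfkb2, where 69.7% of all genes were called lower, so the count of members was not above the background. Relb at −0.09 and Traf2 at −0.31 were the members nearest to 0 under it. With the Pan T score as a covariate edgeR called 0 members and 0% of all genes, and at an unadjusted p under 0.05 it had 1 member, Birc3, and 2.31% of all genes lower. The Pan T sums of these groups did not overlap either, so the missing calls of that fit are not read.

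**Figure D3:**
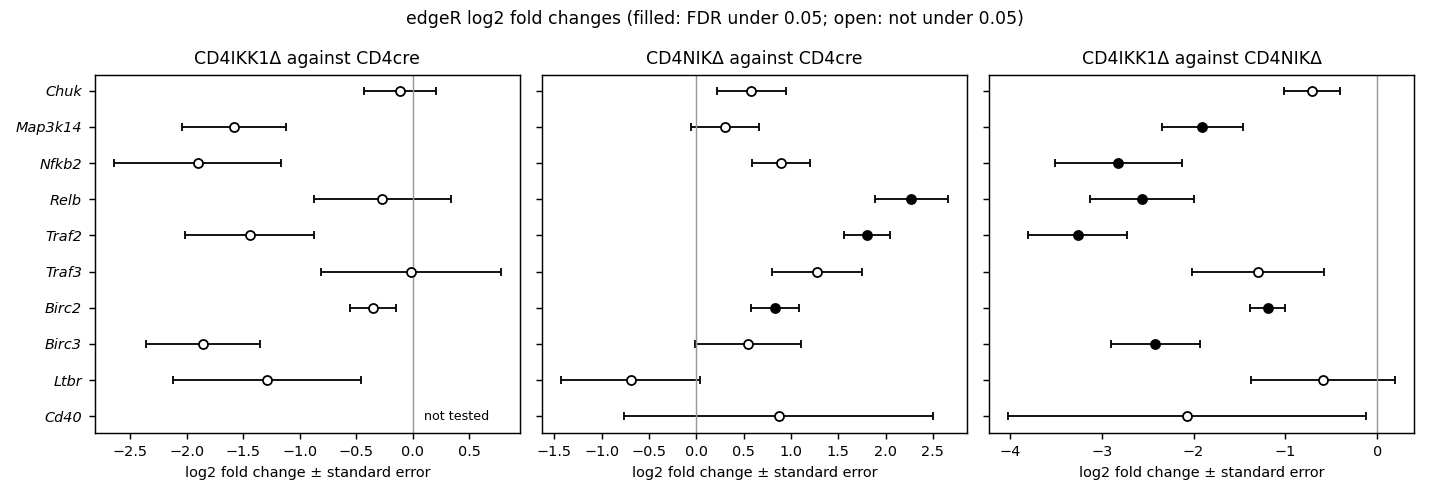
Log2 fold changes of the 10 genes in the 3 comparisons, as the edgeR estimate with its standard error; filled points have an FDR under 0.05, and the 3 panels have separate scales. Filled points are absent for CD4IKK1Δ against CD4cre, number 3 for CD4NIKΔ against CD4cre (Relb, Traf2, Birc2) and number 6 for CD4IKK1Δ against CD4NIKΔ. Scaled to the Pan T sum, which is not plotted, all signs turn apart from that of Ltbr in CD4NIKΔ against CD4cre. That scaling by itself moves the median of all genes to 4.87, −2.21 and 7.06 in the order of the panels.

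The deletions were then set against each other, in a fit of all 11 libraries. Traf2, Nfkb2, Relb, Birc3, Map3k14 and Birc2 were lower in CD4IKK1Δ than in CD4NIKΔ. These 6 of 10 members tested were called, where edgeR called 42.2% of 16546 genes and 22% as lower. Traf2 was 9.59-fold lower, at −3.26 (SE 0.54, FDR 6.4e-04 by edgeR), Nfkb2 7.06-fold at −2.82 (SE 0.70, FDR 0.00868) and Relb 5.91-fold at −2.56 (SE 0.57, FDR 0.00402). Birc3 was at −2.42 (SE 0.48, FDR 0.00169), Map3k14 at −1.91 (SE 0.44, FDR 0.00418) and Birc2 at −1.19 (SE 0.19, FDR 4.5e-04). The calls of these 6 held in each of the 8 fits that left out 1 library. DESeq2 called Chuk lower as well, 7 members in all, where it called 43.4% of all genes and 23.7% as lower.

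Chuk, Traf3, Cd40 and Ltbr were not called here, at −0.71 (SE 0.30), −1.30 (SE 0.72), −2.07 (SE 1.95) and −0.59 (SE 0.79). In fits that left out 1 library, Chuk was called without CD4NIKΔ replicate 1 (−0.92, FDR 0.0412 by edgeR). Cd40 was at 0 counts in the 4 CD4IKK1Δ libraries other than replicate 3, so its value in the fit without that library is not read. Without CD4IKK1Δ replicates 1 and 2, Traf3 was called as well, at −2.63 with an FDR of 0.0110 by edgeR, and 7 members were then lower, where 19.7% of all genes were. Groups did not overlap for the same 6 members, where 45.2% of all genes did not overlap and 24.4% were lower in CD4IKK1Δ. Without Cd40, which passed the filter only with CD4NIKΔ in the comparison, all 9 members were below 0, with a median of −1.91 against 0.06 for all genes, and all 9 were above 0 when scaled to the Pan T sum, which moved the median of all genes to 7.06. Pan T markers were lower for 15 of 16 genes (median −4.06) and neuronal markers higher for 7 of 8 (median 1.52). The B cell sums and the myeloid and dendritic sums were lower in CD4IKK1Δ without overlap, with 2 of 4 and 2 of 6 genes tested called lower. Endothelial and stromal sums (11.5–19.3 CPM in CD4IKK1Δ) were lower and glial sums (463–666 CPM) higher, also without overlap, with 1 of 5 called lower and 3 of 6 called higher. The part of these markers in the result was not tested. A fit with the Pan T score as a covariate was run, but the Pan T sums of the groups did not overlap, so it could hardly tell genotype from that score. In that fit edgeR called 0 members and 4.07% of all genes, and at an unadjusted p under 0.05 it had 3 members, Birc2, Traf2 and Traf3, and 9.94% of all genes lower.

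Counts of a member per 1000 counts of the Pan T markers show how the levels related to T cell RNA in each library. Nfkb2 was at 25.4–50.6 in CD4cre, 30.0–119 in CD4IKK1Δ and 10.5–19.9 in CD4NIKΔ, so that CD4NIKΔ, the highest group by CPM, was the lowest. Map3k14 was at 6.20–8.88, 4.29–107 and 1.50–2.67. Relb was at 4.72–21.7, 12.5–444 and 9.72–11.0, and its 3 CD4NIKΔ values, the highest by CPM, lay within the range of the controls. Traf2 was at 10.5–12.3, 8.72–211 and 7.54–11.9, overlapping between CD4cre and CD4NIKΔ. The highest value of each of these 4 genes came from CD4IKK1Δ replicate 1, where the markers themselves were almost absent.

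**Figure D4:**
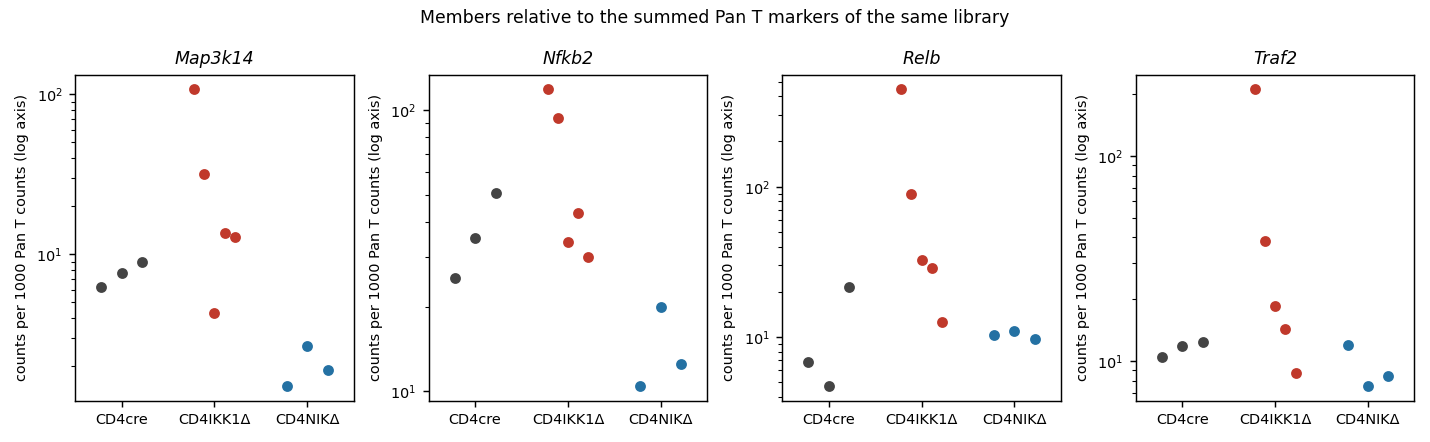
Counts of Map3k14, Nfkb2, Relb and Traf2 per 1000 counts of the 16 Pan T markers (log axis), with 1 point per library by replicate number. CD4NIKΔ libraries are lowest for Map3k14 and Nfkb2 and within the range of CD4cre for Relb, and CD4IKK1Δ replicate 1 is the highest point for all 4 genes.

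A ratio of 2 members within a library does not depend on how libraries are scaled, but it can still move with the share of T cell RNA, which was not tested. It was compared for 5 pairs in 3 comparisons by an exact two-sided permutation test over libraries, with adjustment over the 15 tests. The ratio of Birc3 to Birc2, the paralogs for cIAP2 and cIAP1, was 0.216, 0.121 and 0.130 in CD4cre and 0.0428, 0.0678, 0.0460, 0.0625 and 0.0721 in CD4IKK1Δ, without overlap. Its log2 difference was −1.40, with an exact p of 0.0179, the smallest that 5 against 3 libraries allow, and an adjusted p of 0.25. When single libraries were left out, the difference ranged over −1.55 to −1.14. In CD4NIKΔ the ratio was 0.0511, 0.194 and 0.173.

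The ratio of Nfkb2 to Relb was 3.74, 7.39 and 2.34 in CD4cre, 0.270, 1.04, 1.04, 1.48 and 2.39 in CD4IKK1Δ and 1.01, 1.80 and 1.29 in CD4NIKΔ. Against CD4cre the log2 difference was −1.99 in CD4IKK1Δ, where replicate 5 overlapped the controls (exact p = 0.0536), and −1.60 in CD4NIKΔ, without overlap (exact p = 0.1, the smallest that 3 against 3 allow). Both had an adjusted p of 0.25, and both share the same controls. The ratio of Map3k14 to Chuk was 1.17, 0.590 and 0.905 in CD4cre, 0.114, 0.232, 0.278, 0.607 and 0.290 in CD4IKK1Δ and 0.554, 0.776 and 0.636 in CD4NIKΔ. Its log2 difference of −1.69 between CD4IKK1Δ and CD4cre had an exact p of 0.0536 and an adjusted p of 0.25. None of the 15 ratios had an adjusted p under 0.05, and 0.25 was the lowest. Among the CD4IKK1Δ libraries, the ratio of Traf2 to Traf3 was below 1 in replicates 1 and 2 and above or near 2 in the other 3, so its mean difference of −1.35 to CD4cre (exact p = 0.411) rested on the libraries with few T cell receptor counts, without which it was 0.18.

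**Figure D5:**
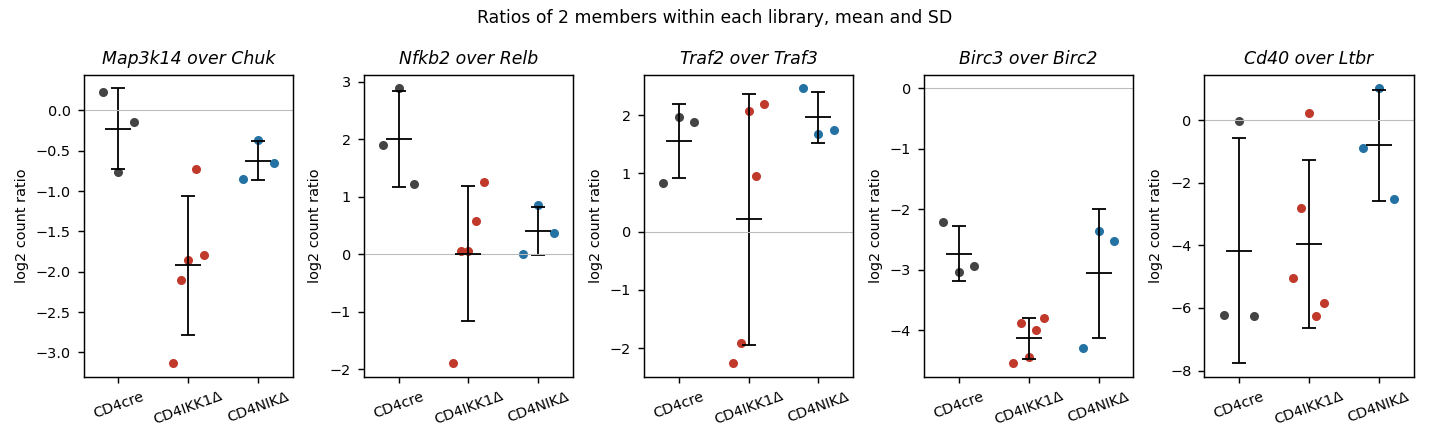
Log2 ratios of the counts of 2 members within each library, with 1 point per library and bars for the mean and SD of 3 CD4cre, 5 CD4IKK1Δ and 3 CD4NIKΔ libraries; each panel has its own scale. Birc3 over Birc2 is lower in all CD4IKK1Δ libraries than in any CD4cre library, and Nfkb2 over Relb is lower in all CD4NIKΔ libraries than in any CD4cre library.

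The wider pathway was described by 6 further gene lists. In CD4IKK1Δ against CD4cre, edgeR called 0 genes in each of the 6 lists, as in the whole table, whereas DESeq2 called 5 of 10 canonical genes lower and 1 processing gene, Fbxw7, higher, where it called 5.96% of all genes lower and 2.79% higher. Among the ligands, Cd40lg (CD40 ligand) was at −2.60 (SE 1.08) and Lta (lymphotoxin α) at −2.75 (SE 1.30). Among the canonical genes, Ikbkb (IKK2) was at −1.70 (SE 0.35, FDR 0.0891 by edgeR) and Rela (p65) at −2.09 (SE 0.51, FDR 0.107). Medians were −1.93 for 7 ligands and −2.09 for 9 canonical genes. Pan T scaling moved that of the canonical genes to 1.58, that of the ligands to −0.45 and that of all genes to 4.87. Tnfrsf9 was at −2.39 (SE 1.49) and Tnfrsf4 at −2.02 (SE 1.31) among the other receptors, and Peli1 at −2.42 (SE 1.04) and Tbk1 at −0.28 (SE 0.28) among the other regulators of NIK. Of the genes that process p100, Fbxw7 was at 0.36 (SE 0.09, FDR 0.113 by edgeR) and Rbx1 at 0.33 (SE 0.10, FDR 0.154), and of the chemokines Cxcl12 was at 0.35 (SE 0.35) and Madcam1 at 0.10 (SE 1.77).

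In CD4NIKΔ against CD4cre, the counts below stand against 12.1% of all genes called higher by edgeR. Under Pan T scaling 69.7% of all genes were called lower and only 0.73% higher, and the median of all genes was −2.21. Of 6 ligands tested, 5 rose, among them Tnfsf11 (RANKL) at 4.43 (SE 0.70), Cd40lg at 3.02 (SE 0.36), Lta at 2.37 (SE 0.52) and Ltb (lymphotoxin β) at 1.62 (SE 0.35). Under Pan T scaling 1 ligand was called higher and the median of the list turned from 1.99 to −0.19. All 9 canonical genes tested were above 0 and 6 were called higher. Among these 6 were Bcl3, an atypical IκB protein, at 2.01 (SE 0.34), Rel (c-Rel) at 1.81 (SE 0.40), Tnfaip3, the NFκB inhibitor A20, at 1.68 (SE 0.17) and Nfkbie (IκBε) at 1.67 (SE 0.23). Under Pan T scaling all 9 canonical genes were below 0 but only 3 were called lower, a smaller share than that of all genes. Tnfrsf9 (4-1BB) at 3.06 (SE 0.54) and Tnfrsf4 (OX40) at 1.86 (SE 0.25), costimulatory receptors of activated T cells, were the 2 of 6 other receptors called higher, and Pan T scaling called none of the 6 higher and 3 lower, a smaller share than that of all genes.

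Other regulators of NIK and the machinery that processes p100 were read against the same shares of all genes. Peli1, a ubiquitin ligase, rose at 1.38 (SE 0.36) and Tbk1, a kinase that phosphorylates NIK, at 1.12 (SE 0.28), the 2 of 5 regulators called higher, and under Pan T scaling none was called higher and 3 lower. Of 7 processing genes, Fbxw7, a ubiquitin ligase subunit that targets nuclear p100, fell by 1.14 on the log2 scale (SE 0.26) and was the only call by edgeR, where 8.97% of all genes were called lower, while Fbxw11 (β-TrCP2) was at 1.57 (SE 0.53, FDR 0.0656 by edgeR). DESeq2 called Fbxw7 lower and 2 genes, Fbxw11 and Skp1, higher, where it called 14.2% of all genes lower and 16.2% higher. Of the 6 target chemokines only Cxcl12 and Madcam1 were tested, at −1.33 (SE 0.41, FDR 0.0510 by edgeR) and 2.01 (SE 1.60), and 0 were called, while Cxcl12 was called lower with RLE factors (FDR 0.0442 by edgeR) and by DESeq2.

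Between the deletions, where 22% of all genes were called lower, 8 of 9 canonical genes were called lower in CD4IKK1Δ than in CD4NIKΔ, and all 9 were below 0. They were led by Nfkbie at −4.26 (SE 0.73), Bcl3 at −4.25 (SE 0.99), Tnfaip3 at −4.06 (SE 0.75) and Rela at −3.60 (SE 0.48). Under Pan T scaling 8 of 9 were above 0 but only 2 were called higher, a smaller share than the 86.1% of all genes. Of 7 ligands 4 were called lower, at −5.69 (SE 1.19) for Tnfsf11, −5.63 (SE 1.03) for Cd40lg, −5.13 (SE 1.18) for Lta and −3.52 (SE 1.05) for Tnfsf14 (LIGHT). Under Pan T scaling none was called lower and 2 higher, where 0.332% of all genes were called lower and 86.1% higher. Tnfrsf9 at −5.46 (SE 1.34) and Tnfrsf4 at −3.90 (SE 1.15) were lower among 7 other receptors, and Peli1 at −3.81 (SE 0.95) and Tbk1 at −1.41 (SE 0.25) among 6 regulators, 2 of 7 and 2 of 6, shares near that of all genes. Under Pan T scaling neither list had a gene called lower, and 3 receptors and 4 regulators were called higher, against the same shares of all genes. Higher in CD4IKK1Δ, where 20.2% of all genes were called higher, were 2 of 7 processing genes, Fbxw7 at 1.48 (SE 0.19) and Rbx1, a subunit of the same class of ligases, at 0.85 (SE 0.15), and the chemokine Cxcl12 at 1.68 (SE 0.39). They were also higher under Pan T scaling, as were all 7 processing genes and 86.1% of all genes. Madcam1 was at −1.93 (SE 1.52).

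The genes whose levels ran most like those of the 2 targeted kinases were sought over the 11 libraries among 16536 genes. Chuk was most alike to Mmp9 (Spearman rho 0.964), Ddrgk1 (0.927) and Tbc1d20 (0.909). Map3k14 was most alike to Abca7, Itpr3 and Neurl3, each with a rho of 0.991, a value that 4 genes shared. These are descriptions of 11 points that share the gradient of T cell RNA. Abca7, for example, was at 36.4, 10.2 and 48.1 mean CPM in CD4cre, CD4IKK1Δ and CD4NIKΔ, where Map3k14 was at 17.9, 5.98 and 22.5.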

How the data were processed

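RNA of sorted renal CD4+ T cells was amplified and sequenced by the authors. Per the study's methods and the submitters' processing notes, the authors trimmed the reads with Trimmomatic, quantified them with kallisto and compared genotypes with DESeq2. The methods name the assembly GRCm39 and the notes mm10, and the transcript annotation and strand setting are not given in the sources used here. The deposited table holds estimated counts per gene symbol, not normalised; reads of a gene and its antisense or near-identical partner may not be separated.

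Estimated counts were rounded to whole numbers, filtered with filterByExpr and tested with edgeR 4.0.16 (R 4.3.3; TMM factors, robust quasi-likelihood F test, Benjamini-Hochberg adjustment over all genes tested). The fit of CD4IKK1Δ against CD4NIKΔ used all 11 libraries, the other fits the libraries of their 2 groups. CPM uses TMM-scaled library sizes. Ratios used a pseudocount of 0.5. DESeq2 1.42.0, RLE factors, another filter, a replicate block, the Pan T score as a covariate, leaving out libraries, and a fold threshold of 2 were alternatives; scaling to the Pan T sum was chosen after seeing the data. The edgeR and DESeq2 scripts were tested on simulated data. Depth was 15751632–25737046 estimated counts; floors cover counting error only. P-values measure the spread between these libraries.

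The members and lists were chosen with earlier results of these data known. Named genes were all 10 members in every library; of each further list, per comparison, up to 4 genes with FDR under 0.05 by absolute log2 fold change, or the 2 with the smallest p where fewer than 2 passed; and the 3 genes most alike to Chuk and Map3k14. Cell type marker lists are given as sums and counts; the kidney tubule sum, not given in the report for CD4NIKΔ, was 12.0–73.0 CPM there. Gene coordinates and transcript lengths are from GENCODE M39 on GRCm39, in which 33508 symbols (93.6%) matched, and promoters are from RefSeq on GRCm38.p6.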

Additional observations from a re-analysis of the deposited data

Results flagged for a closer look

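Among the 5 CD4IKK1Δ libraries, replicate 3 stood far above the other 4 for Traf2, at 26.7 CPM, with a gap to its nearest neighbour of 0.736 of the group's range. It also stood apart for Cd40, at 1.58 CPM, the only library of that genotype with any Cd40 count, where the gap is the whole range by construction, since the other 4 are at 0. Replicate 3 had the highest Pan T sum of its genotype, 1439 CPM. Of 15 groups of values tested in this way 2 stood out, and chance gives about 1 in 20, a rate against which Cd40 cannot be read.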

How the results depend on the processing

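In CD4IKK1Δ against CD4NIKΔ, 6 members were called in the reported fit, 6 under RLE factors, the other filter, the replicate block and the fit of 2 groups (26.1% to 42.4% of all genes called), and 7 with DESeq2 (43.4%) and without CD4IKK1Δ replicates 1 and 2 (37.2%), but 0 with the Pan T score as a covariate (4.07%). In CD4NIKΔ against CD4cre 3 members were called (21.1% of all genes), 5 with DESeq2 (30.4%), 2 with the replicate block (7.8%), the 2-fold threshold (17.4%) or all 11 libraries in the fit (18.6%), and 0 with the Pan T covariate (0%). In CD4IKK1Δ against CD4cre 0 members were called, 2 with DESeq2 (8.75%), and 0 with the replicate block (0.0192%). The block lost only the call of Birc2 (0.86, FDR 0.0686 by edgeR), and the numbers are not a pairing in the labels: the deviations of libraries with the same number correlated at −0.089 to 0.077. RLE factors left 5 members without overlap between CD4NIKΔ and CD4cre (45.1% of all genes). Leaving out 1 library left 3 to 9 (48.9% to 60.1% of all genes, in smaller groups), with 9 without CD4NIKΔ replicate 1 (60.1%) and 6 without CD4cre replicate 2 (53.2%).

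Scaling to the Pan T sum called 6 members lower in CD4NIKΔ against CD4cre, where it called 69.7% of all genes lower, and 6 higher in CD4IKK1Δ against CD4NIKΔ, where it called 86.1% higher, and the share of all calls that were higher went from 57.5% to 1.04% there and from 47.8% to 99.6% in CD4IKK1Δ against CD4NIKΔ. It turned the log2 fold changes in CD4IKK1Δ against CD4cre to 4.67 (Birc2), 2.85 (Birc3), 4.64 (Chuk), 3.43 (Ltbr), 2.13 (Map3k14), 0.78 (Nfkb2), 3.45 (Relb), 2.31 (Traf2) and 5.84 (Traf3). In CD4NIKΔ against CD4cre it gave −1.26 (Birc2), −1.58 (Birc3), −1.10 (Cd40), −1.63 (Chuk), −1.91 (Map3k14), −1.37 (Nfkb2), −0.087 (Relb), −0.31 (Traf2) and −0.80 (Traf3), and in CD4IKK1Δ against CD4NIKΔ 5.93 (Birc2), 4.42 (Birc3), 1.15 (Cd40), 6.27 (Chuk), 6.06 (Ltbr), 4.04 (Map3k14), 2.15 (Nfkb2), 3.54 (Relb), 2.62 (Traf2) and 6.64 (Traf3). The construction of this scaling moves all genes with the markers.

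With the Pan T score as a covariate, reversed values were 0.069 (Chuk) and 0.52 (Relb) in CD4IKK1Δ against CD4cre, −4.36 (Birc3), −0.41 (Chuk), −1.94 (Map3k14), −0.66 (Nfkb2) and −2.28 (Traf3) in CD4NIKΔ against CD4cre, and 4.85 (Cd40), 0.070 (Ltbr) and 0.23 (Nfkb2) in CD4IKK1Δ against CD4NIKΔ. The genotypes did not overlap in their Pan T sums, so these covariate values are not read as an adjustment for T cell RNA. The replicate block gave 0.55 for Traf3 in CD4IKK1Δ against CD4cre. Without CD4IKK1Δ replicates 1 and 2, Relb was at 0.094 in CD4IKK1Δ against CD4cre, the log2 ratio of Traf2 to Traf3 at 0.18, and that of Nfkb2 to Relb against CD4NIKΔ at 0.22. Leaving out 1 library gave in CD4IKK1Δ against CD4cre −0.29 to 0.31 for Chuk, −0.92 to 0.20 for Relb, −0.50 to 0.67 for Traf3 and −0.82 to 2.29 for the log2 ratio of Cd40 to Ltbr, which was −0.060 with a minimum of 10 counts. It gave −0.87 to 0.13 for Ltbr and −0.71 to 0.079 for the ratio of Nfkb2 to Relb in CD4IKK1Δ against CD4NIKΔ, and −0.68 to 0.29 for the ratio of Birc3 to Birc2 in CD4NIKΔ against CD4cre. Cd40 and Ltbr had low counts, and the cause of the reversals was not tested for any gene.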
